A study of Mus musculus with 12 samples.

Results

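The cAMP-dependent protein kinase PKA and its neighbouring signalling genes were followed as 10 genes in mouse nucleus accumbens, by the peaks of the histone variant H2A.Z that the authors assigned to them. The genes were the catalytic subunits Prkaca and Prkacb, the regulatory subunits Prkar1a, Prkar1b, Prkar2a and Prkar2b, the cAMP phosphodiesterases Pde4b and Pde4d, and the G protein subunits Gnb1 and Gng7. Every peak carrying one of these gene names was taken at any distance from the gene, which gave 59 of 59069 peaks in 4 lists. The SC list held 25 of them, the CS list 4, the CC list 4 and the SS list 26. H2A.Z was measured by chromatin immunoprecipitation and sequencing in 12 samples, 3 for each of 4 conditions. A condition is named by its first and its last treatment. SC received saline and then cocaine (called acute in the labels), CS cocaine and then saline (called withdrawal), CC cocaine both times (called challenge), and SS saline both times. The labels give no strain, genotype, age, sex, dose, interval or pooling of animals. Each condition was represented by 1 peak list without values per sample. Replicate error is therefore unknown for every value below, no test between conditions was possible and no p-value is given.

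H2A.Z replaces histone H2A in nucleosomes, most often next to the start sites of genes. In striatal neurons, dopamine receptors act through G proteins on adenylyl cyclases, which make cAMP. cAMP releases the catalytic subunits of PKA from the regulatory subunits, phosphodiesterases break it down, and PKA phosphorylates, among other proteins, the transcription factor CREB, which binds the cAMP response element (CRE).

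The lists differed in kind as well as in condition. The SC, CS, CC and SS lists held 23170, 6417, 4827 and 24655 peaks. The median peak was 727 bp wide in SC, 110 bp in CS, 107 bp in CC and 734 bp in SS. The shortest peak was 315 bp in SC and 321 bp in SS, longer than the typical CS or CC peak. The authors' q-value reached 0.0510 in CS and 0.0625 in CC, but no more than 0.000572 in SC and 0.000544 in SS. Depth per sample was not analysed here, and the condition cannot be told apart from whatever set the length and peak width of its list. The fold enrichments are the authors' own and are read within their list alone, as a rank among the promoter peaks of that list. A promoter peak is one whose middle lies within 1000 bp of a transcription start site (TSS) by the authors' distance. Among markers of cell types, 7 of 10 medium spiny neuron markers had a promoter peak in SC, 0 in CS, 0 in CC and 9 in SS. Of 6 interneuron markers 1, 0, 0 and 3 had one in SC, CS, CC and SS, and of 13 glial and vascular markers 2, 0, 0 and 3. Of all 21900 protein-coding genes in RefSeq, 50.9% had one in SC, 17.2% in CS, 13.5% in CC and 53.4% in SS. The part of these cell types in the results below was not tested.

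Promoter sequences are shown for the genes on which the comparison turns. Each is 300 bases from RefSeq on assembly GRCm38.p6, the assembly that mm10 denotes, and covers 250 bases before and 50 after a RefSeq start, read 5′ to 3′ on the strand of the gene. The Prkaca window (chr8:83972728-83973027, plus strand) and the Prkar1a window (chr11:109650699-109650998, plus strand) lie under wide peaks found in SC and SS alone. The 2 Prkacb windows, upstream (chr3:146812897-146813196, minus strand) and internal (chr3:146770189-146770488, minus strand), lie under SC and SS peaks. A CC peak lay near the upstream window and a CS peak near the internal one, but neither peak overlapped a printed window. The Prkar2a window (chr9:108691893-108692192, plus strand) lies just downstream of the strongest CC peak of the 10 genes, and the Gng7 window (chr10:81014876-81015175, minus strand) had no peak in any list. Capitals mark the CRE (TGACGTCA), its shorter core (TGACG), which the CRE holds on both strands, and the GC box (GGGCGG), each searched on both strands.
Prkaca: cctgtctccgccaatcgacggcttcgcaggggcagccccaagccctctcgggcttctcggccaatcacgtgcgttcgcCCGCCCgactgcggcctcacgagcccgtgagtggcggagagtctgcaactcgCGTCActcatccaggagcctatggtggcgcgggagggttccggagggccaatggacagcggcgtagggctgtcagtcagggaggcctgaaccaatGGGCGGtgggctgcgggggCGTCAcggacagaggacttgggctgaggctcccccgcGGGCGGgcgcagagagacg
Prkacb upstream: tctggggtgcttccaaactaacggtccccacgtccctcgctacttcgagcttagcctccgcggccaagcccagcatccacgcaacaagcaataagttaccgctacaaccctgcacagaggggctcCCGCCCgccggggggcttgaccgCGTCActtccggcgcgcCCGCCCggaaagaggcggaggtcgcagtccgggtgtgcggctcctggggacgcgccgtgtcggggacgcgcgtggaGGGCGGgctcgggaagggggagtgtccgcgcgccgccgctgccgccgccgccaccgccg
Prkacb internal: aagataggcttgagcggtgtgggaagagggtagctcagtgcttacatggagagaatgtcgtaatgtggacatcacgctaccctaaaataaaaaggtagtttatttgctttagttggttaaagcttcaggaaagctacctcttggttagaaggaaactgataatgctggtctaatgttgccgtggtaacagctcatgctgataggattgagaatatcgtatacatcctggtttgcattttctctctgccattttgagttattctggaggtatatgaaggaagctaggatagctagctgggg
Prkar1a: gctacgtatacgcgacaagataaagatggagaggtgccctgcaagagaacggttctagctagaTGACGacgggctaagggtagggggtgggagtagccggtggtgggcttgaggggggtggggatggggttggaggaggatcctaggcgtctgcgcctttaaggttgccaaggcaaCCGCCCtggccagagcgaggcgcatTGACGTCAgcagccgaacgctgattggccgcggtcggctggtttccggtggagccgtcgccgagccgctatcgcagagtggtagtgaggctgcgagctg
Prkar2a: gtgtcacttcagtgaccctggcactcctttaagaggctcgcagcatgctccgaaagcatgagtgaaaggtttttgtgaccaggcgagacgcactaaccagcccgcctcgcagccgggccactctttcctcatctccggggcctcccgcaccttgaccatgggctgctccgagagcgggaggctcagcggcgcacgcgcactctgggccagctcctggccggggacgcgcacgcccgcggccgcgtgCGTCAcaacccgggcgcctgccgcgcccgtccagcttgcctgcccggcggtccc
Gng7: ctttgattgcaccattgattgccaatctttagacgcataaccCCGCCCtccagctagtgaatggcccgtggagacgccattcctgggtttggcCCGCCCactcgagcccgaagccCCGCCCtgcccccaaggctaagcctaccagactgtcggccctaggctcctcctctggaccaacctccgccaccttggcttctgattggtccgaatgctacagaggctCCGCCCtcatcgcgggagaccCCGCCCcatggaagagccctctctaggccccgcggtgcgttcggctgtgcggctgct

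The full CRE was found once among the 10 genes, in Prkar1a at chr11:109650900-109650907, with its first base 49 bases upstream of the RefSeq start at 109650949. It lay in 2 of the 27 RefSeq windows of the 10 genes because the windows overlap, beside 1.79% of all 32851 RefSeq windows. The shorter core stood in 10 of the 27 windows (20.8% of all windows) and the GC box in 12 (35.7% of all). Both counts also include the 2 overlapping Prkar1a windows. Among all RefSeq windows, those under an SS peak are richer in these letters: they held the CRE in 3.24%, the core in 31.7% and the GC box in 68.5%. Of the 15 member windows under an SS peak, 8 held the core and 11 the GC box. Base composition split the windows in the same way. The 15 windows under an SS peak had a median GC content of 68.3% and a median of 31 CpG dinucleotides, and the 12 without one 50% and 3 CpG. Over all windows these medians were 63.0% and 23 under an SS peak and 47.7% and 3 elsewhere. The internal Prkacb window, with 42.3% GC, 5 CpG and none of the 3 motifs, lay under an SS peak all the same. The upstream Prkacb window had 72.0% GC, 41 CpG, 3 GC boxes and 1 core. Gng7 was the opposite case, with 63.7% GC, 20 CpG and 5 GC boxes but no peak. A match of letters describes the window and shows no binding.

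SC peaks covered the same start sites of these genes as SS peaks, whereas CS and CC peaks were found at few of them. A promoter peak was present for 9 of the 10 genes in SC, for 2 in CS, for 4 in CC and for 9 in SS. Among 21900 protein-coding genes in RefSeq the shares with a promoter peak were 50.9% in SC, 17.2% in CS, 13.5% in CC and 53.4% in SS. Prkacb and Pde4d had a promoter peak in all 4 lists, Prkar2a and Pde4b in SC, CC and SS, and Prkaca, Prkar1a, Prkar1b, Prkar2b and Gnb1 in SC and SS alone. The pattern of these last 5 genes was the commonest in the data: 51.0% of the 13585 genes with an SS promoter peak had it, while 11.7% had a promoter peak in all 4 lists. Gng7 had no promoter peak. None of the CS and CC peaks of the 10 genes passed a −log10 q of 5, a limit met by 17.8% of all CS peaks and 19.6% of all CC peaks, beside 97.9% in SC and 97.7% in SS. CS and CC then had 0 of the 10 genes, and SC and SS 9 each. In another setting, each list was reduced to its 4827 peaks of highest fold enrichment, the length of the shortest. Promoter peaks remained for 6 genes in SC, 1 in CS, 4 in CC and 7 in SS. The share of all protein-coding genes was not computed at that length. Of the 7 genes in SS, SC, CS and CC held 5, 1 and 3. They held 86.4%, 22.1% and 23.1% of all 4463 SS promoter genes of the shortened lists.

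**Figure D1:**
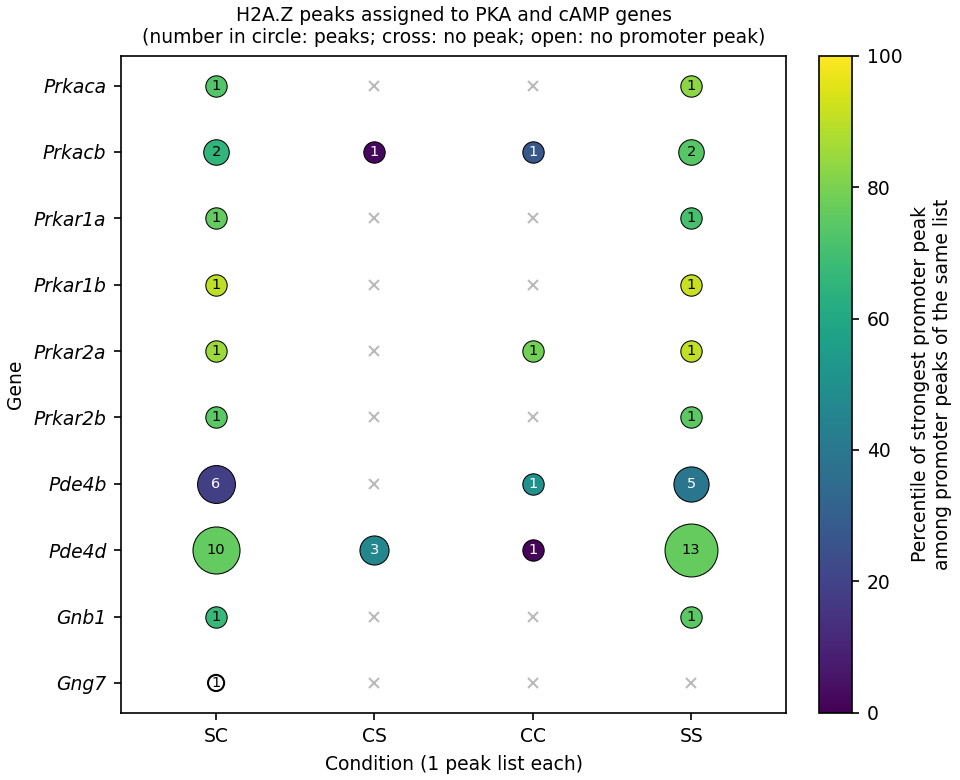
Peaks assigned to each of the 10 genes (rows) in the SC, CS, CC and SS lists (columns). The number in a circle is the count of peaks, circle area grows with it, colour gives the percentile of the strongest promoter peak among promoter peaks of the same list, a cross marks no peak, and the open circle marks Gng7, whose single SC peak was not at a promoter. SC and SS columns are filled for 9 genes with promoter peaks, and CS and CC for 2 and 4.

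Of the 9 genes with an SS promoter peak, SC also had one for 9, a share of 100% (95% exact binomial interval 66.4 to 100%) beside 88.2% of all 13585 SS promoter genes. CS had one for 2 of the 9, 22.2% (2.81 to 60%), beside 28.8%. CC had one for 4 of the 9, 44.4% (13.7 to 78.8%), beside 22.7%. The intervals cover the counting of genes only, and each of the 3 contains the share over all genes. Counted only where the strongest SS promoter peak of the gene was itself overlapped, a rule added after seeing the data, SC held 9, CS 0 and CC 3 of the 9 (all genes: 90.6%, 28.8% and 22.8%). Of the 6 PKA subunits alone, by gene name, 6 were held in SC, 1 in CS and 2 in CC. Set against SC in place of SS, CS held 2 of 9 and CC 4 of 9 (all SC promoter genes: 29.4% and 23.3%). CC held both genes with a CS promoter peak (all CS promoter genes: 41.2%), and CS held 2 of the 4 genes with a CC promoter peak (52.4%).

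**Figure D2:**
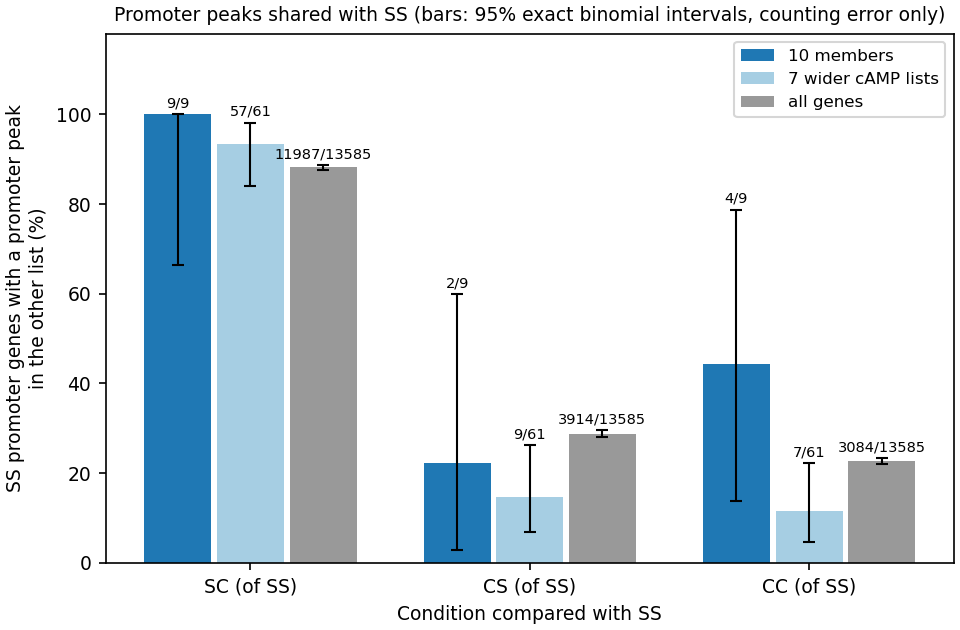
Percentage of genes with an SS promoter peak that also had a promoter peak in SC, CS or CC, for the 10 genes, for 7 wider cAMP gene lists and for all genes. Bars are shares with the counts above them, and lines are 95% exact binomial intervals that cover the counting of genes only. The interval of the 10 genes includes the share of all genes in each comparison. That of the wider lists includes it in SC and ends below it in CS and CC.

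Shares held were also read among genes of like SS peak strength. Ranked by SS fold enrichment into 5 classes of 2717 genes, Prkaca, Prkar1b and Prkar2a fell in the strongest class, Prkacb, Prkar1a, Prkar2b, Pde4d and Gnb1 in the next, and Pde4b in the class second from the bottom. In the strongest class, SC, CS and CC held 3, 0 and 1 of the 3 genes, beside 97.6%, 30.7% and 25.0% of all genes of that class. In the next class they held 5, 2 and 2 of 5, beside 97.0%, 26.4% and 21.1%. The classes go by the strongest SS peak, whereas both CS holds (Prkacb and Pde4d) and the CC hold of Pde4d were at other start sites, where the SS peaks had fold 3.34 (Prkacb), 3.85 and 4.24 (Pde4d). The strongest SS peak itself was overlapped for 5 of the 5 genes in SC, 0 in CS and 1 in CC, beside 99.9%, 26.5% and 21.1% of the class. Pde4b was held in SC and CC and not in CS, in a class of which SC, CS and CC held 87.9%, 31.9% and 25.1%.

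Both catalytic subunits, the kinase proteins themselves, had wide promoter peaks in SC and SS. At Prkaca, which encodes the alpha catalytic subunit, the SC peak ran from 83972190 to 83973407 on chromosome 8 (1217 bp, fold 10.2, 73.1st percentile of SC promoter peaks). The SS peak ran from 83972197 to 83973392 (1195 bp, fold 9.42, 82.9th percentile). The pair had nearly the same edges, and CS and CC had no peak there. Starts and ends are those of the authors' lists on mm10, in which it is not stated whether the start counts from 0 or 1.

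Prkacb, the beta catalytic subunit, has several promoters, and its peaks on chromosome 3 formed 2 sites. At the upstream start site the SC peak ran from 146812280 to 146813610 (1330 bp, fold 8.85, 65.5th percentile) and the SS peak from 146812277 to 146813554 (1277 bp, fold 8.12, 73.6th percentile). CC had a peak of 127 bp there, 146813357 to 146813484 (fold 4.42, q 0.00225), with its middle at −430 bp from the TSS. At the internal site the SC peak was 1247 bp wide (146769606 to 146770853, fold 3.08) and the SS peak 1056 bp (146770003 to 146771059, fold 3.34). CS had a peak of 78 bp there, 146770681 to 146770759, with fold 3.68 and q 0.0510, the highest q in its list and shared by 100 CS peaks. The SC peak was assigned to a TSS at 146770261, and the SS and CS peaks to one at 146770781. Prkacb thus counts as present in all 4 lists by name, but its CS and CC peaks lay at different start sites.

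Among the regulatory subunits, which hold PKA inactive until cAMP binds, Prkar2a alone had a peak outside SC and SS. Prkar2a encodes the type II alpha subunit. Its SC peak ran from 108691696 to 108692769 on chromosome 9 (1073 bp, fold 12.02, 84.9th percentile) and its SS peak from 108691632 to 108692880 (1248 bp, fold 10.5, 90.2nd percentile). The CC peak was 99 bp wide, 108691740 to 108691839, with fold 5.41, q 3.55e-05 and the 78.8th percentile of CC promoter peaks. It was the strongest CC peak of the 10 genes and ended upstream of the promoter window printed above. CS had no peak at Prkar2a.

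Prkar1a, the type I alpha subunit and the gene with the CRE, had an SC peak of 1475 bp (109650076 to 109651551 on chromosome 11, fold 10.6, 75.8th percentile) and an SS peak of 1427 bp (109650073 to 109651500, fold 7.63, 70.6th percentile). The CRE lay inside both peaks. Prkar1b, the type I beta subunit, which is enriched in neurons, had the strongest promoter peaks of the group within SC and SS. They ran from 139129338 to 139130210 on chromosome 5 in SC (872 bp, fold 12.9, 90.1st percentile) and from 139129392 to 139130225 in SS (833 bp, fold 10.7, 91.7th percentile). A further peak lay over the most upstream RefSeq start windows of Prkar1b, at 139150145 to 139151001 in SC (fold 12.3) and 139150086 to 139151036 in SS (fold 10.8). The authors assigned it to Gm15672, so it is not among the 59 peaks. Prkar2b, the type II beta subunit and a main PKA regulator in striatum, had an SC peak of 1104 bp (32060645 to 32061749 on chromosome 12, fold 10.4, 74.6th percentile) and an SS peak of 1087 bp (32060695 to 32061782, fold 8.31, 75.0th percentile). Neither CS nor CC had a peak of any assigned name between the RefSeq ends of Prkar1a, Prkar1b or Prkar2b.

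**Figure D3:**
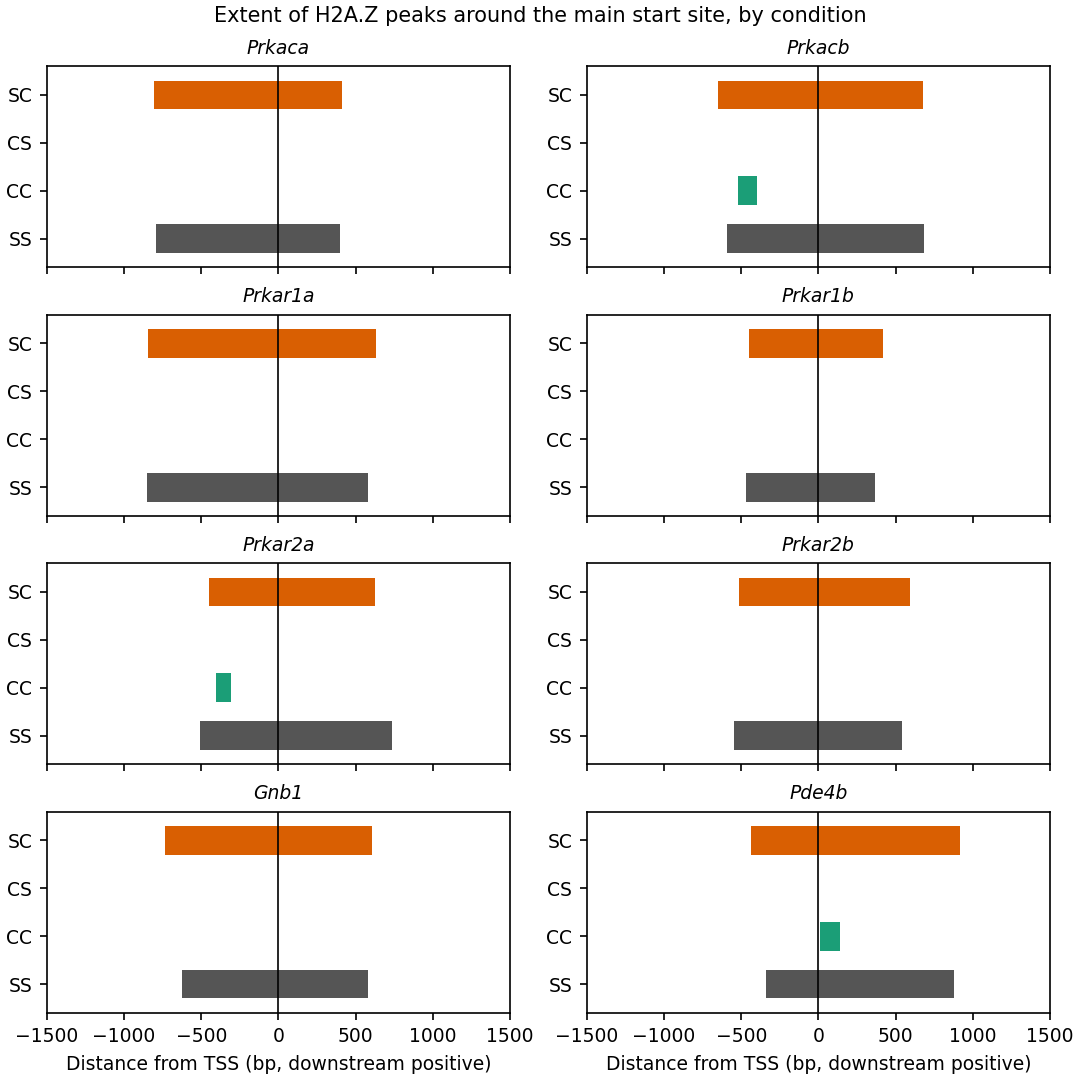
Extent of H2A.Z peaks around the strongest start site of 8 genes, with rows for SC, CS, CC and SS. The x axis is distance from the TSS in bp, positive downstream. SC and SS peaks overlap over most of their width, and the 3 CC peaks, at Prkacb, Prkar2a and Pde4b, cover a small stretch of them.

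Pde4b and Pde4d encode cAMP phosphodiesterases with many alternative promoters, and their peaks were spread over long genes. Pde4d spans 1302 kb in RefSeq and held 10 peaks in SC, 3 in CS, 1 in CC and 13 in SS. In SS, 4 of the 15138 genes with peaks, Pde4d included, had as many or more, and in SC 12 of 14362. Promoter peaks marked 6 start sites of Pde4d in SC, 2 in CS, 1 in CC and 6 in SS. The strongest was at 109902308 to 109903596 on chromosome 13 in SC (1288 bp, fold 10.7, 76.2nd percentile) and 109902250 to 109903658 in SS (1408 bp, fold 8.53, 76.3rd percentile). CS and CC had no peak there.

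Another Pde4d promoter site, a region of overlapping peaks merged across lists, was the only site of the 10 genes with a peak in all 4 lists. Its peaks ran from 109116336 to 109117033 in SC (fold 8.30), 109116327 to 109116425 in CS (98 bp, fold 4.66, q 0.000345), 109116573 to 109116688 in CC (115 bp, fold 3.64, q 0.0392) and 109116072 to 109116992 in SS (fold 4.24). The CS and CC peaks did not overlap each other. The CS peak was assigned to a TSS at 109116359, and the SC, CC and SS peaks to one at 109116641. The remaining CS peaks of Pde4d lay at a start site (109685793 to 109685942, fold 4.35, q 0.00422) and 137747 bp downstream of the assigned internal TSS (109823812 to 109823994, fold 4.18, q 0.00154), and both had SC and SS counterparts. Genes whose pattern of within-list percentiles was most like that of Pde4d, among 1465 genes with promoter peaks in the same 4 lists, were Rnf180, Clic6 and Tmem17, with mean absolute differences of 4.75, 4.75 and 5.34 percentile points over the 4 lists.

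Pde4b, 520 kb long, held 6 peaks in SC, 0 in CS, 1 in CC and 5 in SS, with 3 start sites marked in both SC and SS. At the most upstream site on chromosome 4 the SC peak ran from 102087305 to 102088655 (1350 bp, fold 3.83, 18.4th percentile), the CC peak from 102087753 to 102087884 (131 bp, fold 4.78, q 0.000463, 50.4th percentile) and the SS peak from 102087401 to 102088620 (1219 bp, fold 4.75, 39.4th percentile). The other start sites had fold 2.95 and 3.77 in SC and 3.01 and 4.26 in SS, and no CS or CC peak. Pde4b was the one gene of the 9 whose strongest promoter peak ranked below the median of SC and of SS promoter peaks.

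**Figure D4:**
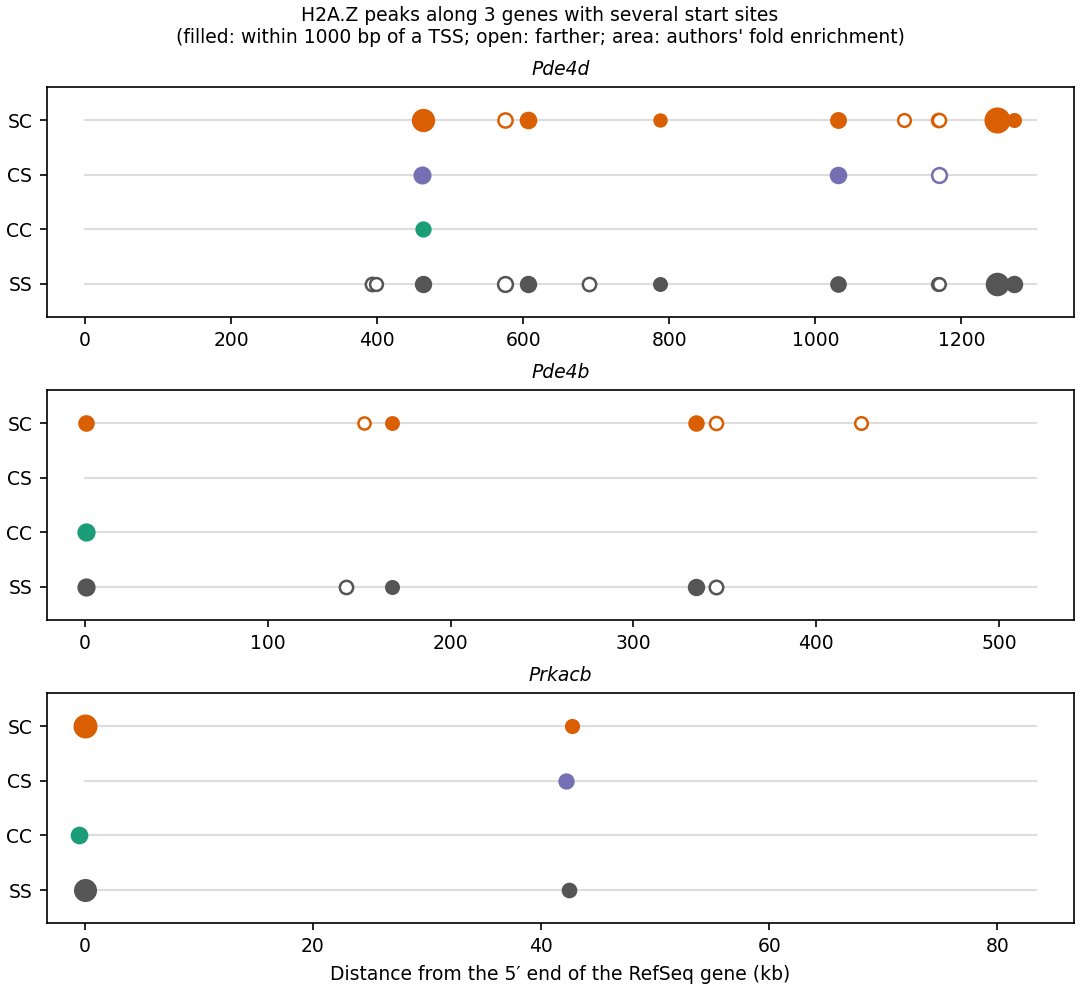
Peaks of Pde4d, Pde4b and Prkacb by distance from the 5′ end of the RefSeq gene (x axis, kb), with rows for SC, CS, CC and SS. Filled circles are peaks within 1000 bp of a TSS, open circles lie farther away, and circle area follows the authors' fold enrichment. Filled circles stand at the same places in SC and SS, 6 for Pde4d, 3 for Pde4b and 2 for Prkacb, while CS and CC peaks stand at few of them.

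The G protein subunits differed from each other. Gnb1, a beta subunit of heterotrimeric G proteins, had an SC peak of 1346 bp (155490624 to 155491970 on chromosome 4, fold 9.20, 67.1st percentile) and an SS peak of 1206 bp (155490735 to 155491941, fold 8.27, 74.8th percentile), and none in CS or CC. Gng7, the gamma subunit that pairs with the olfactory-type G protein of striatal neurons, had a single peak, in SC, at 80985438 to 80986030 on chromosome 10 (592 bp, fold 2.83, q 1.32e-05). It lay 12456 bp downstream of the assigned TSS, and no list had a peak of any assigned name over the RefSeq promoter windows of Gng7.

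Merged across lists, the 59 peaks formed 29 sites, 17 within 1000 bp of a TSS in at least 1 list and 12 farther away. All 17 promoter sites were in both SC and SS. By gene, SC held 88.2% of all SS promoter genes. Of the 12 others, 4 were in both SC and SS, 4 were in SC alone (fold 2.83 to 3.10) and 4 in SS alone (fold 3.15 to 3.42). All 8 sites found in SC or SS alone had fold enrichments under the lower quartile of their own list, which was 3.44 in SC and 3.43 in SS. Some sites in both SC and SS also lay under both quartiles. Among them were the internal Prkacb site (fold 3.08 in SC and 3.34 in SS) and a Pde4b promoter site (2.95 and 3.01). For promoter peaks over all genes, SC held 66.0% of the genes in the weakest SS strength class and 97.6% in the strongest. None of the 8 sites was a promoter site, and whether strength accounts for them was not tested. Of the 26 SS peaks, SC overlapped 22 (84.6%, 65.1 to 95.6%), CS 4 (15.4%, 4.36 to 34.9%) and CC 4 (15.4%), beside 75.7%, 20.3% and 15.7% of all SS peaks. Of the 9 SS peaks beyond 1000 bp of a TSS, SC overlapped 5, CS 1 and CC 0, beside 58.2%, 8.26% and 6.27% of all such peaks.

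The CS and CC peaks were narrow pieces of the wide SS peaks. All 8 lay inside an SS peak and covered 7.39 to 37.1% of its width (median 10.7%). Over the whole lists, 92.3% of CS peaks and 92.9% of CC peaks overlapped an SS peak, whether or not they lay wholly inside it. The middles of the 8 peaks lay between −505 and +98 bp of the SS middle, on the upstream (negative) side for 6 of the 8. Neither the share of SS width nor the offset was computed over the whole lists, so neither can be called particular to these genes. No CS peak of the 10 genes overlapped a CC peak, where 25.2% of all CS peaks did. None of the 27 RefSeq promoter windows was touched by a CS or CC peak (4.65% and 3.26% of all windows were), whereas 15 were overlapped in SC and 15 in SS (38.0% and 40.1% of all windows).

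**Figure D5:**
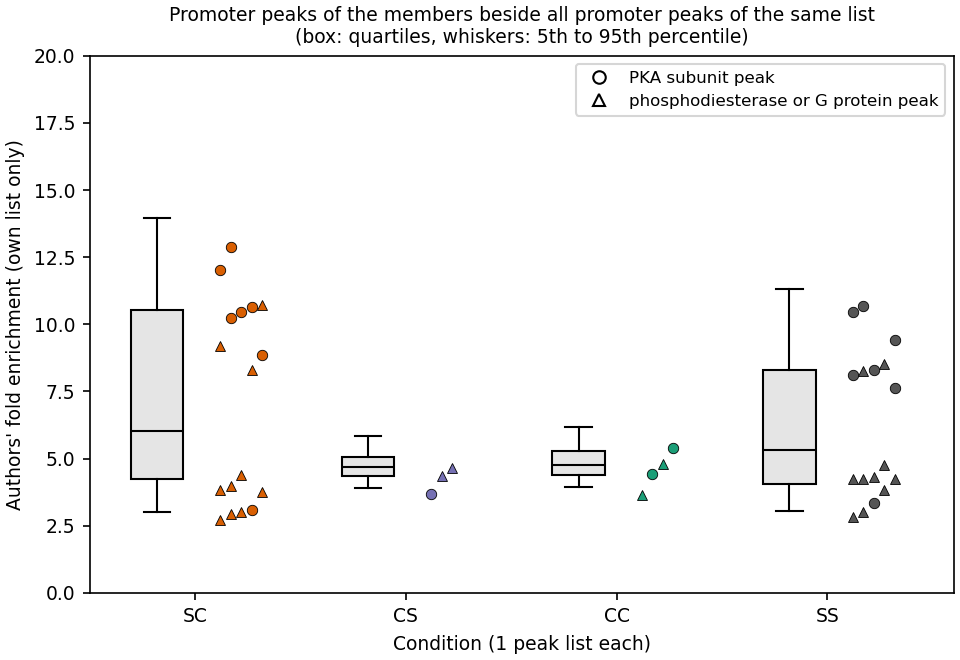
Authors' fold enrichment (y axis) of every promoter peak of the 10 genes in SC, CS, CC and SS, circles for PKA subunits and triangles for phosphodiesterase and G protein genes. Each box gives the quartiles of all promoter peaks of the same list, its line the median (6.03, 4.68, 4.78 and 5.31), and its whiskers the 5th to 95th percentile. Heights are to be read against the box of the same list only.

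Within their lists, the strongest promoter peak of each gene stood at a median percentile of 74.6 in SC (9 genes), 24.1 in CS (2 genes), 38.8 in CC (4 genes) and 75.0 in SS (9 genes). The percentiles are among all promoter peaks of a list, of which a gene can have several, and this raises the rank of a strongest peak. Among the strongest peaks of each gene, Pde4b ranked 11284 of 12948 in SC and 9037 of 13585 in SS. In CS the Pde4d peak stood at the 46.1st percentile and the Prkacb peak at the 1.99th. In CC, Prkar2a and Pde4b stood above Prkacb at the 27.2nd and Pde4d at the 0.888th. In SS the order was Prkar1b, Prkar2a, Prkaca, Pde4d, Prkar2b, Gnb1, Prkacb, Prkar1a and Pde4b. With no spread between samples, neighbours in this order cannot be separated.

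The wider cAMP pathway, 78 further genes in 7 lists, was also marked at most promoters in SC and SS and at few in CS and CC. A promoter peak was present for 59 of the 78 in SC, 10 in CS, 8 in CC and 61 in SS. Of the 61 genes with an SS promoter peak, SC held 57 (93.4%, 84.1 to 98.2%), CS 9 (14.8%, 6.98 to 26.2%) and CC 7 (11.5%, 4.74 to 22.2%), beside 88.2%, 28.8% and 22.7% of all SS promoter genes. The SC interval contains the share over all genes, and the CS and CC intervals end below it. These intervals cover the counting of genes only, and a cause was not tested.

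The counts of each list below stand beside the shares of protein-coding genes with a promoter peak, 50.9% in SC, 17.2% in CS, 13.5% in CC and 53.4% in SS. With so few genes, 0 of 10 in CS or CC cannot be told apart from these shares. Of the 7 adenylyl cyclases with an SS promoter peak, CS and CC each held 0 (interval 0 to 41.0%). Over all SS promoter genes CS and CC held 28.8% and 22.7%. Upstream of cAMP, the 10 adenylyl cyclases, which synthesise it, had a promoter peak for 6 in SC, 0 in CS, 0 in CC and 7 in SS. The strongest in SS were Adcy3 (fold 14.3 in SC and 12.3 in SS), Adcy7 (14.5 and 10.8) and Adcy2 (10.6 and 8.92). Of 13 G alpha subunits, which couple receptors to the cyclases among other effectors, 10 had a promoter peak in SC, 2 in CS, 3 in CC and 11 in SS. Gnal, the olfactory-type alpha subunit of striatal dopamine signalling, had one in SC (fold 14.3), CC (5.38) and SS (11.2), and none in CS. Gnai1 was in SC, CC and SS too, Gna13 in SC, CS and SS, and Gna12 and Gna11 in SC and SS. Gnao1 appeared in CS (fold 5.35) and CC (4.35) alone by name, but both peaks lay on an SS peak assigned to 4930488L21Rik (fold 6.42). Of 15 other G beta and gamma subunits, 8 had one in SC, 2 in CS, 1 in CC and 7 in SS. Among them Gng13 was in all 4 lists (fold 15.6 in SC, 4.68 in CS, 4.35 in CC and 12.8 in SS), Gng10 was in SC, CS and SS, and Gng4 in SC and SS.

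Downstream, 14 other phosphodiesterases had promoter peaks for 13 in SC, 2 in CS, 3 in CC and 13 in SS. Pde1c was in all 4 lists (fold 4.25 in SC, 4.64 in CS, 4.92 in CC and 5.56 in SS), Pde3b in SC, CS and SS, Pde3a and Pde11a in SC, CC and SS, and Pde1b, Pde7a and Pde8b in SC and SS. All 3 PKA inhibitor genes, Pkia, Pkib and Pkig, had promoter peaks in SC and SS and none in CS or CC, with Pkig the strongest (fold 12.4 in SC and 12.8 in SS). Of 15 A-kinase anchoring proteins, which tether PKA to sites in the cell, 11 had one in SC, 3 in CS (Akap1, Akap10 and Akap12), 1 in CC (Akap13) and 12 in SS. Akap7 and Akap9 were in SC and SS. All 8 other cAMP effectors and PKA substrates had one in SC and in SS, 1 in CS (Rcan1) and 0 in CC. They include Rapgef4, a cAMP-activated exchange factor (fold 14.1 in SC and 11.0 in SS), and Arpp19, a PKA substrate (13.0 and 10.1). In all, 15 of the 78 genes had a promoter peak in CS or CC. The strongest such peak of each gene in each list, 18 peaks in all, always overlapped an SS peak. Over the whole lists, 92.3% of CS peaks and 92.9% of CC peaks did so.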

How the data were processed

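H2A.Z was profiled in 12 samples of mouse nucleus accumbens, grouped by title into SC, CS, CC and SS (3 each). Total histone H3 libraries were not analysed here. The submitters' processing notes name mm10, cutadapt, HISAT, SAMtools and MACS2. The sources used here give no versions, settings, control or pooling. Each condition has 1 annotated peak list deposited by the authors. The authors gave each peak a fold enrichment, a ratio over background, and a q-value that was read as linear, per the file headers. They also deposited 1 assigned gene and a signed distance per peak, which on testing equalled the peak middle minus the TSS on the gene's strand within 1 bp in 100% of peaks with a distance.

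Peaks were selected by gene name in Python 3.11.15 with pandas 2.3.3. A promoter peak had its middle within 1000 bp of a TSS. Lists were compared by gene name and by overlap of at least 1 bp, after a check of both on simulated data. Percentiles rank fold within a list. Shares carry 95% Clopper-Pearson intervals from scipy 1.17.1. All 10 genes matched RefSeq (GRCm38.p6), the source of promoter sequences. The 10 genes and the other lists were chosen with earlier results of these data known. Besides the 10 genes, those named are the wider-list genes with a CS or CC promoter peak, the 3 strongest in SS per wider list, and the 3 most like Pde4d. The lists hold 0 columns of other samples.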

Additional observations from a re-analysis of the deposited data

How the results depend on the processing

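With a minimum −log10 q of 5, CS and CC had 0 peaks of the 10 genes, 0 promoter members, 0 SS promoter members held and 0 SS member peaks overlapped, and the wider lists had 2 genes in CS and 0 in CC. Nearly every gene is lost at that limit, since CS held 4.37% and CC 3.57% of all 13518 SS promoter genes. When each list was reduced to its 4827 peaks of highest fold enrichment, the 10 genes had 6 peaks in SC, 2 in CS and 7 in SS, CS had 1 promoter member, and the wider lists had 23 genes in SC and 30 in SS. In that setting SC held 5 and CS 1 of the 7 SS promoter members, beside 86.4% and 22.1% of all SS promoter genes. There SC, CS and CC overlapped 5, 0 and 2 SS member peaks, and the share over all SS peaks was not computed. Ranking promoter peaks by q-value put the median percentile at 78.6 in SC, 28.4 in CS, 40.5 in CC and 80.5 in SS. The cause was not tested, beyond the fewer peaks that the first 2 settings keep. Counting only an overlap of the strongest SS promoter peak, chosen after seeing the data, CS held 0 members. Of the other 45 values, 30 were identical to those reported and the rest moved by at most 1.5 times, among them 6 promoter members in SC and 7 in SS at equal length, beside 9 each. Another was CC at equal length, which held 3 of the 7 SS promoter members, beside 23.1% of all SS promoter genes. The 45 values include promoter windows of 500 and 3000 bp, other overlap rules, and a rule also chosen after seeing the data, by which a peak of any assigned name could hold a promoter. No paired analysis was possible because the lists hold no values per sample, and for the same reason no sample could be left out in turn. Depth limits could not be given.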
